A study of Mus musculus with 12 samples.

Results

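The transcripts of 10 genes of the hepatic acute phase response and its STAT3 feedback were followed in 12 mouse livers. The genes were *Saa1*, *Saa2*, *Saa3*, *Lcn2*, *Orm1*, *Orm2*, *Hp*, *Crp*, *Il1rn* and *Socs3*. They were taken by name, as the rows carrying these symbols in both tables of the series, and all 10 were found among 41743 genes. Whole livers of female mice, 3 to 4 months old, were sequenced in 4 groups of 3. YAP KO mice (YAP1 KO in the labels, on C57BL/6) carried *Foxa3*-Cre, *Yap1* fl/fl and *ROSA*-stop fl/fl-EYFP, and were compared with WT littermates, the WT (C57BL/6) group. YKTH mice (YAP1 KO TAZ Heterozygote, on a mixed C57BL/6-FVB background) had lost both copies of *Yap1* and 1 copy of *Wwtr1*, the gene of TAZ. These mice came from *Foxa3*-Cre and a separate FVB line floxed at *Yap1* and *Wwtr1*, for which the paper's methods name no EYFP reporter. They were compared with their own WT littermates, the WT (mixed) group. The *Foxa3* promoter drives Cre in the foregut endoderm of the embryo, from which hepatocytes and bile duct cells arise. Whether blood, vessel and stellate cells keep the floxed genes was not measured here. The paper mentions unshown evidence that this Cre line may also affect the developing kidney, which comes from mesoderm. The labels name no treatment. The mice are named here by the LM numbers of their labels, and nothing in the labels ties a number of one group to a number of another.

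The acute phase response is the change in plasma protein synthesis that hepatocytes make when injury or infection releases cytokines. Interleukin-6 and its relatives bind receptors that share the chain gp130, Janus kinases then phosphorylate STAT3, and STAT3 acts with C/EBP factors and NF-κB at the genes of secreted proteins. SOCS3, itself induced by STAT3, binds gp130 and the kinases and damps the signal, and the interleukin-1 receptor antagonist encoded by *Il1rn* blocks the parallel interleukin-1 pathway. In mice the serum amyloid A proteins are the most inducible members of the response, whereas C-reactive protein, the classical marker in humans, is a weak responder.

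*Saa3* (chr7:46711998-46715700), *Saa1* (chr7:46740497-46742980) and *Saa2* (chr7:46751790-46754313) are neighbours on GRCm38.p6, and so are *Orm1* (chr4:63344560-63348163) and *Orm2* (chr4:63362449-63365878). The promoters of the serum amyloid A genes and of *Orm2* are shown first, so that the near-identical pair *Saa1* and *Saa2* can be read beside *Saa3*, whose levels differed from theirs in the livers. They come from RefSeq on GRCm38.p6, which had an entry for 8 of the 10 genes and none for *Orm1* and *Hp*. Each sequence runs 5′ to 3′ along the strand of its gene, and bases inside the gene as the files delimit it were left off. Capitals mark the letters that match the C/EBP consensus TTNNGCAA on either strand.
Saa1 (chr7:46742981-46743230, minus strand): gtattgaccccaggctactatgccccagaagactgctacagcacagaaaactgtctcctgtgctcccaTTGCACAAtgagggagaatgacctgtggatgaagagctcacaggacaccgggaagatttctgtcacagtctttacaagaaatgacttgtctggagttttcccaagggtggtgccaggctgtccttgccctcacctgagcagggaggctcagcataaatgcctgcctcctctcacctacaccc
Saa2 (chr7:46751583-46751789, plus strand): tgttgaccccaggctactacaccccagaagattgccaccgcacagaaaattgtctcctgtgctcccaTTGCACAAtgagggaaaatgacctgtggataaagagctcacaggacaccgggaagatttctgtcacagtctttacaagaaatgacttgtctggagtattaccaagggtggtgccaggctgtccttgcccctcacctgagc
Saa3 (chr7:46715701-46715926, minus strand): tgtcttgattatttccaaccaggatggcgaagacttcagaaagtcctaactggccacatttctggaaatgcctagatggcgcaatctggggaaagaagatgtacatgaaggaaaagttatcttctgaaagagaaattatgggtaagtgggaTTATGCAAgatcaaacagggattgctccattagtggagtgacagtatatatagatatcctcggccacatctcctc
Orm2 (chr4:63362199-63362448, plus strand): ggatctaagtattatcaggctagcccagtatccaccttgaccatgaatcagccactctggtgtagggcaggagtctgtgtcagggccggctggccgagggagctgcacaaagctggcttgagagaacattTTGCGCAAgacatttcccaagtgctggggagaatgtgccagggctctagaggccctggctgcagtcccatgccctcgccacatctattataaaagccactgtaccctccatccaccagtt

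The RefSeq starts of *Lcn2* and *Socs3* lie 513 and 681 bases inside the gene ends given in the files, so only 30 bases around a match are printed for these genes. For *Lcn2* the capitals again mark C/EBP, and for *Socs3* they mark the STAT consensus TTCNNNGAA.
Lcn2 (chr2:32387937-32387966, minus strand): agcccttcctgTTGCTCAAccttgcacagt
Socs3 (chr11:117969501-117969530, minus strand): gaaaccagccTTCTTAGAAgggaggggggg

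In the 250 bases before the RefSeq start, the C/EBP letters were present in 5 of the 8 promoters (*Saa1*, *Saa2*, *Saa3*, *Lcn2* and *Orm2*), and in 9.56% of all 32851 promoters of the table. The STAT letters were present in *Socs3* alone of the 8 and in 7.02% of all promoters. The stricter form TTCCNGGAA, which is contained in TTCNNNGAA, was found in 0 of the 8 and in 0.913% of all. The NF-κB letters GGGNNTTTC were found in 0 of the 8 and in 3.72% of all. Both strands were searched. A match describes letters in this window and is not a measured binding site. The promoters of *Saa1* and *Saa2* were 94.8% identical over 251 aligned columns, while *Saa1* and *Saa3* matched at 48.5% of 268, so the C/EBP letters of *Saa1* and *Saa2* are the same stretch in near-identical copies.

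**Figure D1:**
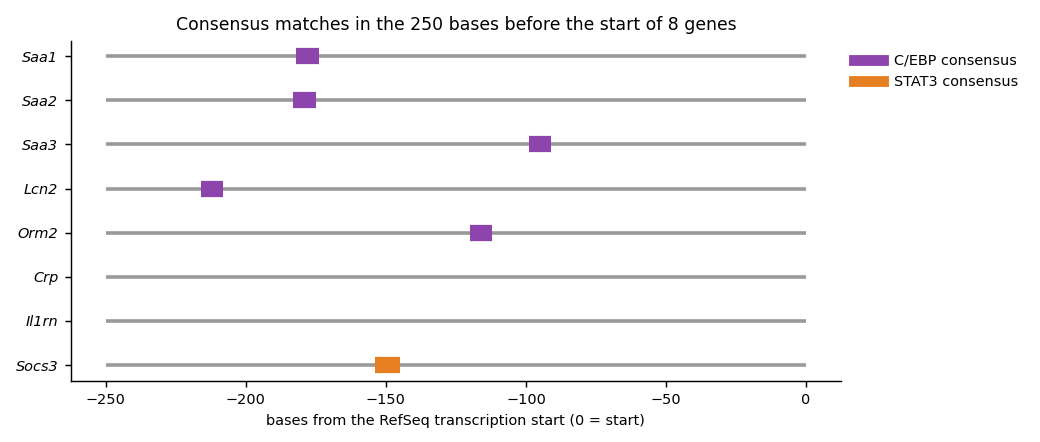
Position of consensus matches in the 250 bases before the RefSeq start of 8 genes (grey line, 1 gene a row; x axis in bases from the start). C/EBP letters (purple) lie between 92 and 216 bases before the start in 5 genes, STAT letters (orange) lie 146 to 154 bases before the start of *Socs3*, and *Crp* and *Il1rn* hold neither.

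The values are TPM, a measure of transcript abundance that corrects for gene length and adds up to 1000000 in every library, so the number of reads behind a value cannot be read from it. *Yap1* was at 28.2 to 33.2 TPM in the WT livers, at 1.67 to 3.72 in YAP KO and at 8.63 to 11.5 in YKTH livers. *Wwtr1* was at 6.26 to 8.38 TPM in WT, 13.3 to 16.7 in YAP KO and 11.5 to 14.1 in YKTH livers, so the loss of 1 copy did not bring its transcript below the WT range. Fold changes below are differences of log2(scaled TPM + 1), after each library was divided by a factor that centres its log ratios to the other libraries. Those factors were 0.857 to 0.947 in WT and 1.07 to 1.23 in knockout livers, so that, against the ratio of the deposited TPM, scaling made rises smaller and falls larger. Significance is limma's test with Benjamini-Hochberg adjustment over all genes tested, at 0.05. Whole liver RNA was measured, so fewer cells of a type and less RNA per cell cannot be told apart.

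Most of the 10 genes were far higher in both models. In YAP KO livers 8 rose and 2 fell (limma, adjusted p under 0.05), against 18.8% of 11704 tested genes called higher and 18% called lower. In YKTH livers 8 rose and 1 fell, against 19.2% of 11741 called higher and 19% called lower. The median log2 change of the 10 was 2.25 in YAP KO and 2.07 in YKTH livers, where the median over all tested genes was -0.04 in each. Without scaling the libraries, that median was 0.278 and 0.244, and 4390 genes were higher and 834 lower in YAP KO and 4089 and 886 in YKTH livers, against 2195 and 2104, and 2253 and 2233, with scaling. Of the 10 genes, 8 were then called higher and 1 lower in YAP KO and 9 higher and none lower in YKTH livers. The deposited TPM of knockout and WT mice did not overlap for 9 of the 10 genes in either model, and for 56.7% and 54.5% of all tested genes. Together the 10 genes made up 0.396% to 0.599% of all TPM in the WT livers, 1.78% to 2.42% in YAP KO and 1.56% to 2.02% in YKTH livers.

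**Figure D2:**
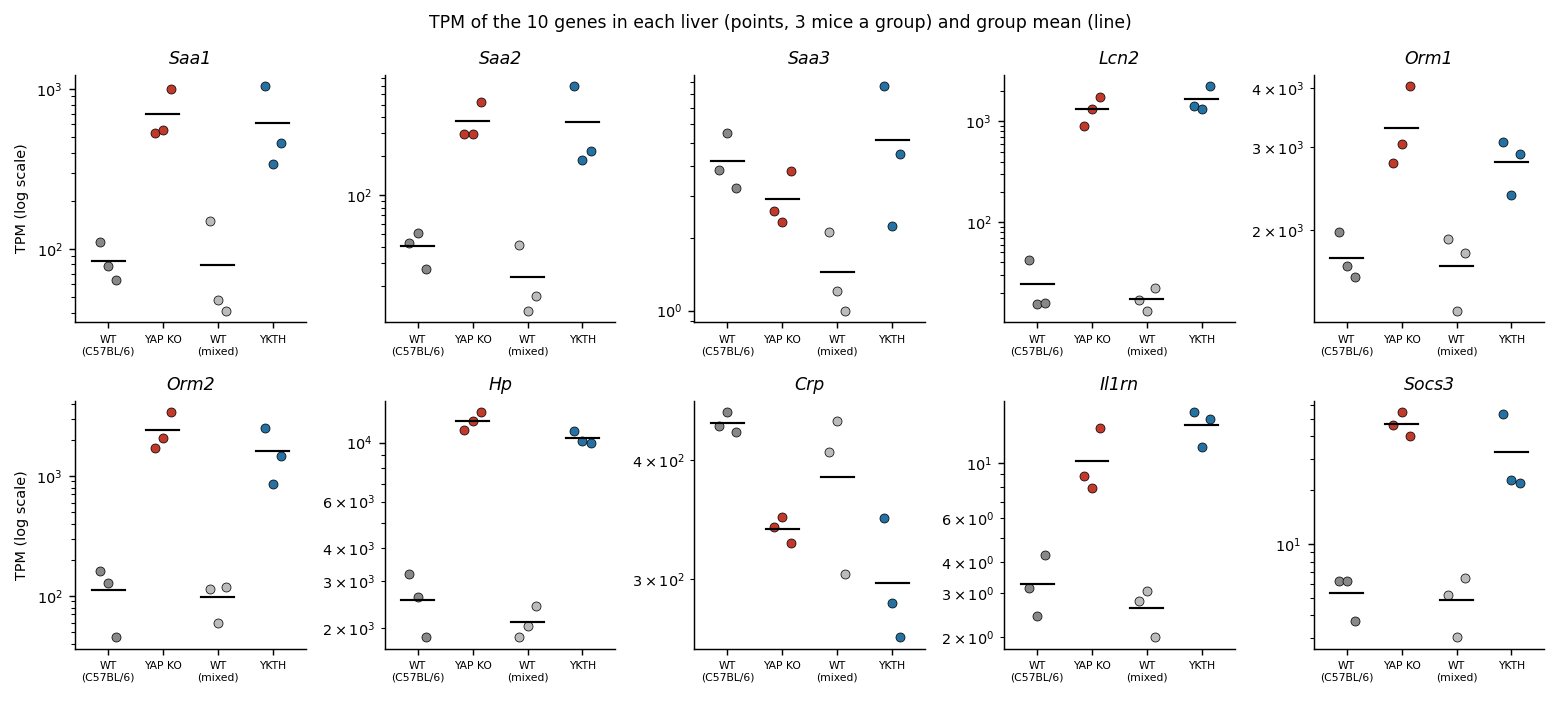
TPM (log axis, a separate range in each panel) of each of the 10 genes in each of the 12 livers, with 1 point a mouse, 3 mice a group and a line at the group mean. Knockout and WT points are wholly apart for *Saa1*, *Saa2*, *Lcn2*, *Orm1*, *Orm2*, *Hp*, *Il1rn* and *Socs3* in both models, and *Crp* runs the other way with overlap in the YKTH comparison.

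*Lcn2*, which encodes lipocalin-2, a secreted protein that withholds iron from bacteria by binding their siderophores, showed the steepest rise. Among WT (C57BL/6) mice, LM192, LM193 and LM75 had 42.6, 15.4 and 15.6 TPM, and among YAP KO mice LM189, LM191 and LM74 had 906, 1323 and 1761. In WT (mixed) mice LM226, LM227 and LM230 it was at 16.7, 13.1 and 22.4, and in YKTH mice LM225, LM250 and LM251 at 1414, 1337 and 2258. The lowest knockout liver, LM189 at 906 TPM, was far above the highest WT liver, LM192 at 42.6. The log2 change was 5.46 ± 0.36 (SE, n = 3 against 3, limma adjusted p = 3.11e-05) in YAP KO, which was rank 7 from the top of 11704 genes. It was 6.18 ± 0.26 (limma adjusted p = 2.64e-06), rank 5 of 11741, in YKTH livers.

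The serum amyloid A genes *Saa1* and *Saa2* encode apolipoproteins that hepatocytes load onto high-density lipoprotein during inflammation. *Saa1* was at 110.4, 78.1 and 63.5 TPM in WT (C57BL/6) and at 531, 552 and 1002 in YAP KO livers, in the mouse order given for *Lcn2*. It was at 149.7, 48.1 and 40.9 in WT (mixed) and at 1048, 339.7 and 461 in YKTH livers. The groups did not overlap in either model, and LM74 and LM225 stood well above the other mice of their groups. The log2 change was 2.65 ± 0.24 in YAP KO (limma adjusted p = 0.000127) and 2.70 ± 0.50 in YKTH livers (limma adjusted p = 0.00379).

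*Saa2* was at 42.6, 51.2 and 26.8 TPM in WT (C57BL/6), 295, 299 and 522 in YAP KO, 40.9, 12.7 and 16.7 in WT (mixed), and 699, 185 and 221 in YKTH livers. The lowest knockout liver was above the highest WT liver in each model. The log2 change was 2.81 ± 0.25 (limma adjusted p = 0.000118) and 3.51 ± 0.51 (limma adjusted p = 0.00127). The longest annotated transcripts of *Saa1* and *Saa2* are 96.7% identical, and how the authors' counting split reads between such copies is not given in the sources used here. Their sum, which does not depend on that split, was 57.6 to 190.7 TPM in the WT livers, 826 to 1524 in YAP KO and 525 to 1747 in YKTH livers.

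*Saa3*, which in mice is made largely by macrophages and fat cells and little by hepatocytes, was at a low level in every group, and its change was smaller than those of its neighbours. It was at 3.87, 5.52 and 3.24 TPM in WT (C57BL/6) and 2.61, 2.33 and 3.81 in YAP KO livers. It was at 2.13, 1.21 and 0.996 in WT (mixed) and 8.65, 2.24 and 4.50 in YKTH livers. The TPM of YAP KO and WT mice overlapped, whereas all 3 YKTH mice were above their WT littermates, LM250 by a narrow margin that scaling removed (2.04 against 2.25 scaled TPM in LM226). *Saa3* fell by 0.69 ± 0.19 on the log2 scale in YAP KO (limma adjusted p = 0.0245) and rose by 0.99 ± 0.34 in YKTH livers (limma adjusted p = 0.0491). In the YKTH group its order of mice was that of *Saa1* and *Saa2*. The call in YAP KO livers was lost without LM189 (limma adjusted p = 0.068), LM191 (0.0812) or LM193 (0.0764), without scaling (0.157) and in 1 fit of all 12 libraries (0.0862). The call in YKTH livers was lost without any of LM225 (limma adjusted p = 0.108), LM226 (0.0565), LM227 (0.116), LM230 (0.131) and LM251 (0.122), with no filter on low values (0.0909), with quantile normalization (0.113) and with robust variance shrinkage (0.0595).

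*Hp* encodes haptoglobin, which captures haemoglobin released into plasma, and was the most abundant transcript of the 10 in every liver but LM226, where *Orm1* was higher. It was at 3206, 2629 and 1854 TPM in WT (C57BL/6), 11200.5, 12036 and 13040.4 in YAP KO, 1847, 2038 and 2423 in WT (mixed), and 11038, 10182 and 10008 in YKTH livers. By mean TPM it stood at rank 48 and 60 of all genes in the WT groups and at rank 11 and 14 in YAP KO and YKTH livers. The spread within the knockout groups was small beside the difference, with means of 12092 ± 921 and 10409 ± 552 TPM (SD, n = 3). The log2 change was 1.91 ± 0.18 (limma adjusted p = 0.000182) and 1.99 ± 0.17 (limma adjusted p = 8.22e-05).

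*Orm1* and *Orm2* encode orosomucoids, plasma glycoproteins that carry drugs and other small molecules, and their levels differed sharply. *Orm2* was at 163, 127 and 45.2 TPM in WT (C57BL/6), 1716, 2072 and 3401 in YAP KO, 113, 60.0 and 119 in WT (mixed), and 2485, 859.6 and 1476 in YKTH livers. *Orm1* was at 1979, 1675 and 1586 TPM in WT (C57BL/6), 2778, 3051 and 4048 in YAP KO, 1910.1, 1346 and 1783 in WT (mixed), and 3076, 2377 and 2895 in YKTH livers. *Orm2* thus rose from a minor to a major transcript, while *Orm1* was already abundant in WT livers. The ratio of *Orm1* to *Orm2* TPM was 12.2 to 35.1 in the WT livers and 1.19 to 2.77 in the knockout livers, with no overlap.

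The log2 change of *Orm2* was 4.18 ± 0.42 (limma adjusted p = 0.000234), rank 17 of 11704, in YAP KO and 3.64 ± 0.37 (limma adjusted p = 0.000223), rank 26 of 11741, in YKTH livers. For *Orm1* it was 0.54 ± 0.14 (limma adjusted p = 0.0159) in YAP KO and 0.41 ± 0.16 (limma adjusted p = 0.0806), past no threshold, in YKTH livers. The first of these was lost without WT mouse LM193 (limma adjusted p = 0.0583), and the second passed without scaling (0.00747) and with quantile normalization (0.0073). The transcripts of *Orm1* and *Orm2* are 91% identical, and each is 86.1% to 88% identical to that of *Orm3*. The 3 genes summed to 1439 to 2165 TPM in WT and to 3256 to 7545 in knockout livers.

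*Crp*, whose product binds phosphocholine on bacteria and dying cells, was the only one of the 10 genes that fell in both models. It was at 435, 449 and 428 TPM in WT (C57BL/6), 340.2, 349 and 327 in YAP KO, 408, 439 and 304 in WT (mixed), and 348, 284 and 261 in YKTH livers. The YAP KO livers were all below their WT littermates and close to each other, while 1 WT (mixed) liver, LM230, lay within the YKTH range. *Crp* fell by 0.73 ± 0.11 on the log2 scale (limma adjusted p = 0.00136) in YAP KO and by 0.68 ± 0.15 (limma adjusted p = 0.00776) in YKTH livers. The second value fell by 0.36 without scaling (limma adjusted p = 0.109) and by 0.29 with quantile normalization (0.196), neither of them past the threshold.

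*Il1rn*, whose product occupies the interleukin-1 receptor without activating it, was a low transcript that rose in both models. It was at 3.14, 2.43 and 4.26 TPM in WT (C57BL/6), 8.87, 7.95 and 13.8 in YAP KO, 2.79, 3.06 and 1.99 in WT (mixed), and 16.0, 11.6 and 15.1 in YKTH livers. The lowest knockout mouse, LM191, was well above the highest WT mouse, LM75. The log2 change was 1.07 ± 0.21 (limma adjusted p = 0.00571) in YAP KO and 1.81 ± 0.16 (limma adjusted p = 0.000101) in YKTH livers.

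*Socs3*, the feedback inhibitor, was at 6.19, 6.21 and 3.71 TPM in WT (C57BL/6) and 46.1, 54.7 and 40.1 in YAP KO livers. It was at 5.23, 3.02 and 6.47 in WT (mixed) and 53.5, 22.9 and 22.1 in YKTH livers. The lowest knockout liver, LM251 at 22.1 TPM, was above the highest WT liver, LM230 at 6.47. The log2 change was 2.60 ± 0.21 (limma adjusted p = 6.71e-05) in YAP KO and 2.15 ± 0.33 (limma adjusted p = 0.00166) in YKTH livers. In the latter group LM225 alone stood at the YAP KO level, and without it the log2 change was 1.78 (limma adjusted p = 0.00132).

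**Figure D3:**
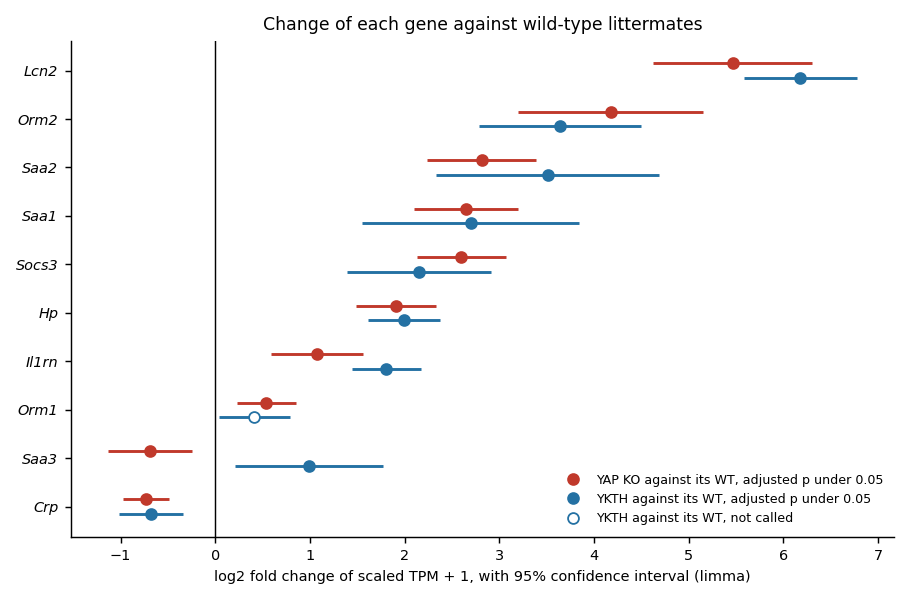
log2 fold change of scaled TPM + 1 (x axis) of each gene in YAP KO (red) and YKTH livers (blue) against WT littermates, with 95% confidence intervals from limma, 3 mice against 3. Filled points passed an adjusted p of 0.05. *Lcn2* lies at 5.46 and 6.18 and *Crp* at -0.73 and -0.68, and *Saa3* is the only gene with points on both sides of 0.

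The order of the 10 genes by size of change was nearly the same in both models, with *Lcn2*, *Orm2*, *Saa2*, *Saa1*, *Socs3* and *Hp* leading in that order. The difference between the models was tested as a contrast of the 4 groups. No gene of the 10 passed (limma, adjusted p under 0.05), against 0.0658% of 12159 tested genes, and 2 of the 10 had an unadjusted p under 0.05, as did 4.58% of all tested genes. These were *Saa3*, whose change was lower in YAP KO by 1.68 on the log2 scale (95% interval -2.61 to -0.75, limma adjusted p = 0.682), and *Il1rn*, lower by 0.73 (-1.35 to -0.12, limma adjusted p = 0.999). For *Lcn2* the interval of the difference ran from -1.82 to 0.38, for *Saa1* from -1.43 to 1.31, for *Saa2* from -2.11 to 0.71, for *Orm2* from -0.86 to 1.92 and for *Socs3* from -0.51 to 1.40. Each of these wide intervals holds differences of more than 2-fold between the models. For *Hp* (-0.65 to 0.47), *Crp* (-0.46 to 0.35) and *Orm1* (-0.35 to 0.59) a difference of 2-fold lay outside the interval. The models also differ in strain background, in the floxed line they came from and in their *Yap1* level, which cannot be told apart here from the lost copy of *Wwtr1*.

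The WT groups on the different backgrounds were compared in the same way. None of the 10 genes passed (limma, adjusted p under 0.05), against 0.216% of 11126 tested genes, and 2 had an unadjusted p under 0.05, as did 5.83% of all tested genes. *Saa3* was lower in WT (mixed) livers by 1.14 on the log2 scale (limma adjusted p = 0.179) and *Saa2* by 0.94 (limma adjusted p = 0.799). The TPM of the WT groups did not overlap for *Saa3* and overlapped for the other 9 genes, where 11.7% of all tested genes did not overlap. Exact permutation tests of the mean TPM of 3 against 3 mice cannot give a two-sided p under 0.1. They gave that value for 9 of the 10 genes in each knockout comparison, the exceptions being *Saa3* in YAP KO and *Crp* in YKTH livers (both exact p = 0.2).

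The highest mouse of a group was often the same for several of the 10 genes. In TPM LM74 of the YAP KO group was the highest mouse for 8 of the 10 genes, the exceptions being *Crp* and *Socs3*. In the YKTH group LM225 was the highest for 9 of the 10, the exception being *Lcn2*, and LM250 was the lowest for 7. Among WT (C57BL/6) mice LM75 was the lowest for 8. After scaling, which divided LM74 and LM225 by the largest factors of their comparisons, LM74 was the highest for 7, LM225 for 7, and LM250 and LM75 were each the lowest for 7. These ranks were not tested. With LM74 left out all 10 calls in YAP KO livers were kept in number (8 higher, 2 lower), and with LM225 left out 8 of 9 were (7 higher, 1 lower).

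In the YAP KO group the highest mouse for most of the 10 genes, LM74, was the lowest for the sum of immediate-early genes, the class of transcripts such as *Fos* and *Jun* that cells switch on within minutes of a stimulus. The summed TPM of 19 such genes was 4502 in LM189, 2227 in LM191 and 620.8 in LM74 of the YAP KO group. It was 542 in LM225, 395 in LM250 and 422 in LM251, so that LM225 was the highest of the YKTH group here too, and 185 to 284 in the WT livers. LM189 had the lowest *Saa1*, *Saa2*, *Lcn2*, *Orm1*, *Orm2* and *Hp* TPM of its group and the highest immediate-early sum. *Socs3*, a rapidly induced gene itself, was at 46.1 TPM in LM189, 54.7 in LM191 and 40.1 in LM74. It was thus highest in LM191, whose immediate-early sum was the middle one, and lowest in LM74, where that sum was lowest. In YAP KO livers 13 of 17 tested immediate-early genes rose and none fell (limma, adjusted p under 0.05), against 18.8% of all tested genes called higher. In YKTH livers 8 of 16 rose and none fell, against 19.2% called higher. The 13 became 9 of 16 still tested without LM191, 10 of 16 without LM189, 10 of 17 without LM192 and 14 of 16 without LM74. The 8 became 7 without LM226 or LM227 and 9 without LM230 or LM250. Without scaling 17 of 17 and 13 of 16 rose. Of all tested genes, 4390 of 11704 and 4089 of 11741 were then called higher. *Fos* rose by 4.04 and 1.14, *Atf3* by 3.91 and 1.51, *Jun* by 3.91 and 1.55, and *Btg2* by 3.86 and 1.47 on the log2 scale in YAP KO and YKTH livers. In 1 fit of all 12 libraries the YKTH values of *Fos*, *Atf3*, *Jun* and *Btg2* did not pass (limma adjusted p = 0.147, 0.0514, 0.0691 and 0.0889). Without LM189 the log2 change of *Socs3* was 2.57 (limma adjusted p = 0.000548). The part of these genes in the level of *Socs3* was not tested.

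**Figure D4:**
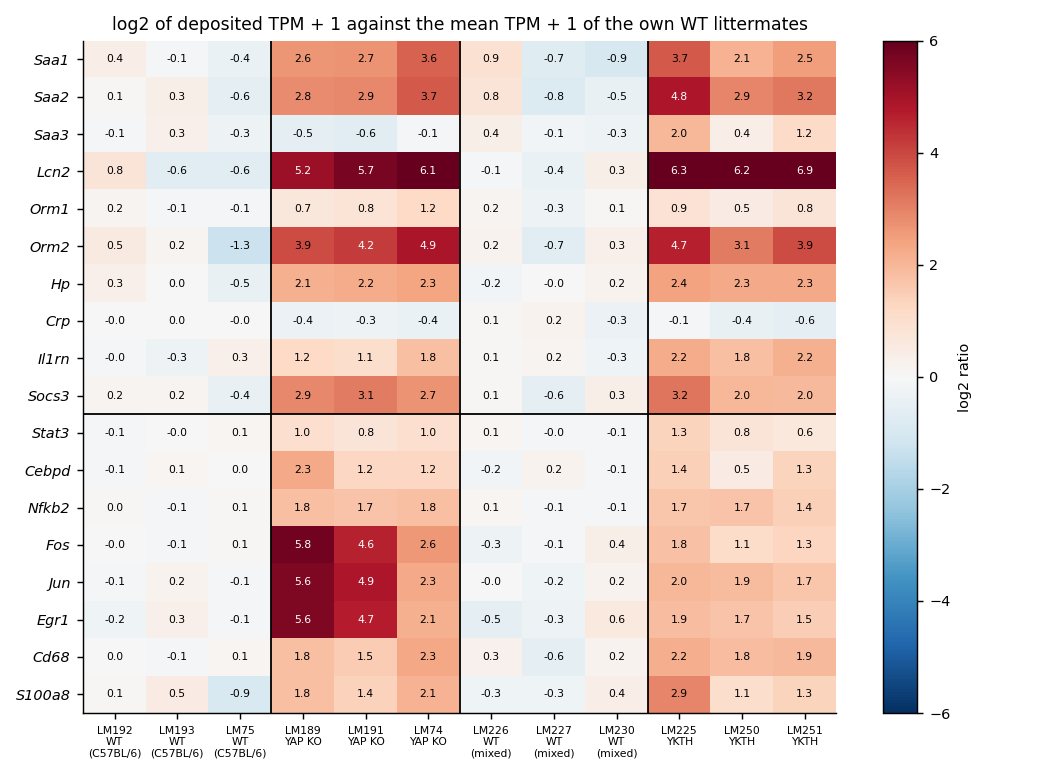
log2 ratio of TPM + 1 in each liver (columns, 12 mice in 4 groups) to the mean TPM + 1 of its own WT group, for the 10 genes (above the line) and for *Stat3*, *Cebpd*, *Nfkb2*, *Fos*, *Jun*, *Egr1*, *Cd68* and *S100a8*. Most of the 10 genes peak in LM74 or LM225 within their group, while *Fos*, *Jun* and *Egr1* peak in LM189, at 5.8, 5.6 and 5.6.

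The rest of the pathway was read from lists of genes by role, counted over all their tested members. Of 12 ligands of gp130, interleukin-1 and TNF receptors, 4 were tested in YAP KO and 5 in YKTH livers. *Clcf1*, a cytokine that signals through gp130 and the LIF receptor, was at 0.4 to 1.29 TPM in WT and at 8.76 to 16.3 in knockout livers, a log2 change of 2.75 and 2.46. In YAP KO it passed the filter on low values only through the knockout livers, and with any of these left out it was not tested. In YKTH livers it rose with a limma adjusted p of 0.000122. *Cntf*, a gp130 ligand of nerve support cells, fell by 0.73 in YKTH livers (limma adjusted p = 0.0473), a call that was lost without any of LM225, LM226, LM227, LM230 and LM251 (limma adjusted p from 0.0685 to 0.139). The classical inducers were close to the floor of the data. *Il6* did not exceed 0.785 TPM, *Osm* 1.42, *Lif* 2.11 and *Il11* 0.489 in any liver, and *Il22* was listed at 0 in all 12. *Lif* was at 0.66 to 2.11 TPM in the knockout livers and at 0.0288 or less in the WT livers. *Il1b*, tested in both models, had log2 changes of 1.07 in YAP KO (limma adjusted p = 0.131) and -0.35 in YKTH livers (limma adjusted p = 0.184).

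Of 11 tested receptors, 6 rose and 3 fell in YAP KO, against 18.8% of all tested genes called higher and 18% called lower. In YKTH livers 4 rose and 4 fell, against 19.2% and 19%. Without scaling 6 rose and 2 fell in each model, and in YAP KO the 6 became 4 without LM191 or LM192. The receptors for oncostatin M and interleukin-22 rose, with *Osmr* up by 1.75 and 1.45 and *Il22ra1* by 1.85 and 2.20 on the log2 scale. *Lifr*, the LIF receptor, fell by 2.68 and 2.10, from 52.6 to 114 TPM in WT to 17.3 to 20.5 in knockout livers. *Il1rap*, the accessory chain of the interleukin-1 receptor, fell by 1.22 and 1.38. *Il6ra* fell by 0.72 and 0.80 (limma adjusted p = 0.0418 and 0.034). The call for *Il6ra* was lost in YAP KO livers without LM74, LM189, LM191, LM192 or LM193 (limma adjusted p from 0.053 to 0.129), in YKTH livers without LM227, LM230, LM250 or LM251 (0.0798 to 0.115), and without scaling in both (0.206 and 0.144). The log2 changes of *Il6st*, which encodes gp130 itself, were -0.05 and -0.03 (limma adjusted p = 0.802 and 0.859).

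Among 16 kinases and transcription factors, 7 rose and 1 fell in YAP KO, against 18.8% of all tested genes called higher and 18% called lower. In YKTH livers 6 rose and 1 fell, against 19.2% and 19%. The 7 became 4 without LM74, LM189 or LM193, and the 6 became 3 without LM225 or LM230. Without scaling 11 and 10 rose, where 4390 of 11704 and 4089 of 11741 tested genes did. *Nfkbiz*, an inducible nuclear partner of NF-κB, rose by 1.50 and 0.76, *Nfkb2*, an NF-κB subunit, by 1.47 and 1.32, and *Cebpd*, the C/EBP factor induced in inflammation, by 1.27 and 0.82 on the log2 scale. *Cebpa*, the C/EBP factor of the resting hepatocyte, fell by 0.94 and 0.68. *Stat3* rose by 0.57 and 0.60 (limma adjusted p = 0.00655 and 0.0168). Without LM225, LM226, LM230 or LM251 the *Cebpd* value in YKTH livers was no longer past the threshold (limma adjusted p = 0.0769, 0.0929, 0.0677 and 0.106), nor with no filter on low values (0.0604) or with quantile normalization (0.0636). The same held in YKTH livers for *Cebpa* with quantile normalization (limma adjusted p = 0.0518) and for *Nfkbiz* in 1 fit of all 12 libraries (0.0683).

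The other feedback inhibitors moved less than *Socs3*. Of 15 tested, 4 rose and none fell in YAP KO, against 18.8% of all tested genes called higher and 18% called lower. In YKTH livers 6 rose and none fell, against 19.2% and 19%. Without scaling 10 and 11 rose, where 4390 of 11704 and 4089 of 11741 tested genes did. *Tnfaip3*, which encodes A20, a brake on NF-κB, rose by 1.96 and 1.76, *Nfkbie*, an inhibitor of NF-κB, by 1.08 and 1.01, and *Il18bp*, which encodes a decoy for interleukin-18, by 0.72 and 1.30 on the log2 scale. The *Il18bp* value in YAP KO livers missed the threshold without LM74 (limma adjusted p = 0.0529). *Socs2*, which restrains growth hormone signalling, rose by 0.62 in YKTH livers (limma adjusted p = 0.00347, and 0.134 in 1 fit of all 12 libraries) and had a log2 change of -0.19 in YAP KO livers (limma adjusted p = 0.725). The median log2 change of this list was 0.19 and 0.25.

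Of 12 tested further STAT3 targets, 7 rose and 1 fell in YAP KO, against 18.8% of all tested genes called higher and 18% called lower. In YKTH livers 6 rose and 4 fell, against 19.2% and 19%. The 7 became 3 or 4 of 11 still tested without LM74, LM189 or LM191, and the 6 became 3 without LM225, LM227 or LM250. The 4 that fell in YKTH livers became 2 without LM251, and without scaling 8 rose and 2 fell there. *Timp1*, an inhibitor of matrix metalloproteinases, was at 0 to 0.931 TPM in WT and at 10.8 to 20.6 in knockout livers. It passed the filter on low values only through the knockout livers, and with any of these left out it was not tested. *Icam1*, a leukocyte adhesion molecule, rose by 1.62 and 1.47, *Myc* by 2.15 and 1.68, and *Junb* by 2.82 and 1.30 on the log2 scale. *Junb* and *Myc* are also immediate-early genes and were highest in LM189, at 605 and 46.6 TPM. *Vegfa* was among those that fell in both models. The *Junb* value in YKTH livers was lost without LM225, LM226 or LM227 (limma adjusted p = 0.0579, 0.075 and 0.0703) and in 1 fit of all 12 libraries (0.0677).

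The wider acute phase response was mixed. Of 23 other positive acute phase genes tested, 11 rose and 4 fell in YAP KO, against 18.8% of all tested genes called higher and 18% called lower. In YKTH livers 8 rose and 2 fell, against 19.2% and 19%. The 11 became 7 without LM191 or LM193, the 4 became 2 without LM75, LM191 or LM192, and the 2 became 5 without LM225. Without scaling 17 rose and 2 fell in YAP KO, and 13 rose and 2 fell in YKTH livers. Of all tested genes, 4390 of 11704 and 4089 of 11741 were then called higher, and 834 and 886 lower. *Cd14*, the lipopolysaccharide co-receptor, rose by 4.38 and 4.46, from 3.13 to 4.39 TPM in WT to 92.7 to 173 in knockout livers, and *Lrg1*, a secreted leucine-rich glycoprotein, by 2.12 and 2.43 on the log2 scale. *Mt2*, a metal-binding protein, rose by 2.32 in YAP KO livers, a call that was lost without LM189, LM191, LM192 or LM193 (limma adjusted p = 0.0708, 0.0502, 0.0715 and 0.067) and with robust variance shrinkage (0.0761). In YKTH livers its log2 change was 0.31 (limma adjusted p = 0.645). *Saa4*, which fell by 1.38 and 2.21, is the constitutive rather than an inducible member of the serum amyloid A family. It is nevertheless among the genes counted above as falling in both models. The fibrinogen genes *Fga*, *Fgb* and *Fgg*, classical STAT3-driven plasma proteins that were chosen for mention after their values were seen, had log2 changes of 0.09 to 0.30 after scaling, with limma adjusted p from 0.113 to 0.63. In deposited TPM *Fga* was at 1988 to 2298 in WT (C57BL/6) and 2846 to 3985 in YAP KO livers. It was at 1797 to 2320 in WT (mixed) and 2679 to 4418 in YKTH livers. The deposited TPM of *Fgb* and *Fgg* were also higher without overlap in both models. Over all tested genes 56.7% and 54.5% did not overlap, in either direction.

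Among 10 negative acute phase genes, whose plasma proteins drop in inflammation, 7 fell and 1 rose in YAP KO, against 18% and 18.8% of all tested genes. In YKTH livers 5 fell and 1 rose, against 19% and 19.2%. There 4 fell and 2 rose without scaling, and also with quantile normalization. The summed TPM of the list was 112397 to 127085 in WT (C57BL/6) and 119431 to 131012 in YAP KO livers. It was 103019 to 128927 in WT (mixed) and 116018 to 137616 in YKTH livers. The 7 became 5 without scaling or without LM193 and 4 with quantile normalization, where the list's median log2 change was -0.17 and -0.10. *Serpina6*, corticosteroid-binding globulin, fell by 3.02 and 2.54, *Igfbp3*, a carrier of insulin-like growth factors, by 1.83 and 1.63, and *Ttr*, transthyretin, by 1.13 and 0.93 on the log2 scale. *Trf*, transferrin, rose by 1.18 and 1.14, from 10358 to 11575 TPM in WT to 27174 to 33906 in knockout livers, and the YKTH call was lost with no filter on low values (limma adjusted p = 0.0596).

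**Figure D5:**
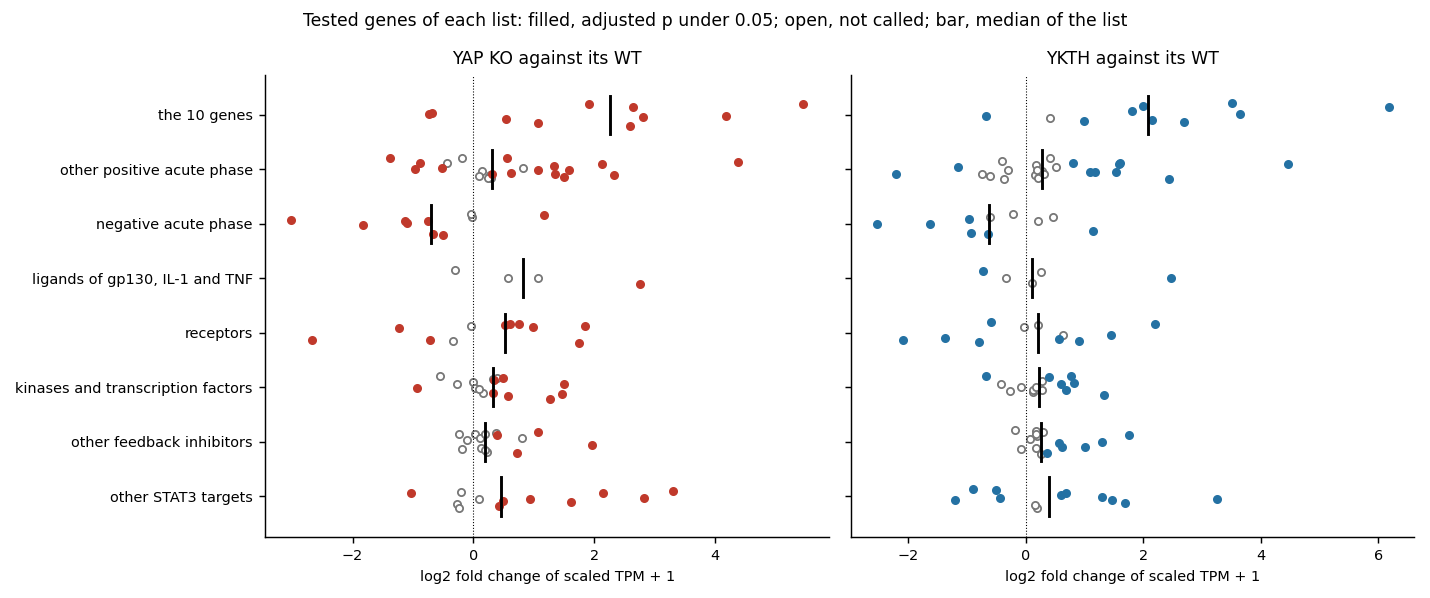
log2 fold change of scaled TPM + 1 (x axis) of the tested genes in each list (rows) in YAP KO and YKTH livers against WT littermates, with filled points for an adjusted p under 0.05 (limma), open points for the rest and a bar at the list's median. The 10 genes have medians of 2.25 and 2.07, the other positive acute phase genes of 0.31 and 0.28, and the negative acute phase genes of -0.71 and -0.63.

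Markers of other cell types were also counted, and their values stand here because *Lcn2*, *Saa3*, *Il1rn* and *Socs3* are also made by leukocytes. Of all tested genes, 18.8% were called higher and 18% lower in YAP KO, and 19.2% and 19% in YKTH livers. Of 12 macrophage markers 11 rose in each model, and their summed TPM was 425 to 893 in WT and 1463 to 2098 in knockout livers. Of 13 neutrophil markers, 4 of 5 tested rose in YAP KO and 1 of 4 tested in YKTH livers, with sums of 5.61 to 17.9 TPM in WT, 52.9 to 62.0 in YAP KO and 13.4 to 60.6 in YKTH livers. The 4 became 2 of 3 tested without LM74 and 2 of 4 without LM189, and the 1 became 0 of 4 without LM226 or LM227 and 2 of 3 without LM250. *Ly6g*, which defines mouse neutrophils, did not exceed 0.339 TPM and was listed at 0 in all WT and all YKTH livers. LM250, with a neutrophil sum of 13.4 TPM, had *Lcn2* at 1337 TPM. Its own WT littermates had sums of 5.61 to 8.69, and WT (C57BL/6) mice of 8.13 to 17.9. Of 8 monocyte markers, 7 of 7 tested were called higher in YAP KO and 5 of 6 tested in YKTH livers. All but 3 of the tested ones passed the filter on low values only through the knockout livers. They could hardly have been called lower, so these counts are not read as a rise of the list. With a knockout mouse left out, 3 markers stayed in the test in each model. In YAP KO 0 of them rose without LM74 or LM189 and 3 without LM191. In YKTH livers 2 rose without LM225 or LM251 and 3 without LM250. Of 10 hepatocyte markers none rose and 4 fell in each model (1 rose and 3 fell in YAP KO without scaling). *Alb*, the defining one, was among the 4 that fell in YAP KO livers and was not called in YKTH livers. Its TPM was 69928 to 83138 in WT (C57BL/6) and 55896 to 62811 in YAP KO livers. In WT (mixed) livers it was 65662 to 82865, and in YKTH livers 51588 to 67542. The part of these cell types in the levels of the 10 genes was not tested.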

How the data were processed

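Per the paper's methods, the authors mapped paired reads of whole liver RNA (GRCm38.p6, CLC Genomics Workbench) and deposited 1 TPM value per gene and mouse. The authors' own fold changes, p-values and false discovery rates (edgeR), also in the files, were not used. The paper's methods state 1 nominal depth for all libraries. Read counts are not used here, and TPM do not keep the reads behind a value. Separate animals were the replicates.

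Deposited TPM were divided by a trimmed mean of log ratios (30% of ratios and 5% of means trimmed), and log2 was taken after adding 1. A gene was tested if 3 or more libraries of the fit reached 1 TPM. The test was limma 3.58.1 under R 4.3.3 (eBayes with trend, two-sided, Benjamini-Hochberg, 0.05), each model with its own 6 libraries and the difference between the models over all 12. Tested on simulated data with 200 changed genes, these fits recovered 183 (YAP KO), 191 (YKTH), 186 (difference) and 191 (WT groups). These counts give neither the size of the changes nor the false calls, and do not speak to small changes such as that of *Orm1*. Exact permutation tests used scipy 1.17.1, and near copies blastn 2.17.0.

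The 10 genes, the lists and the tests were chosen with earlier results of these data known. Named from each list were up to 4 called genes with the largest changes, and others where a result turned on them (*Il6*, *Osm*, *Lif*, *Il11*, *Il22*, *Il1b*, *Il6ra*, *Il6st*, *Stat3*, *Vegfa*). Alternatives covered the pseudocount (0.1), the filter (none, or 5 TPM), scaling, robust shrinkage, a threshold of 0.01, 1 fit of all libraries, a term for near LM numbers and each mouse left out.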

Additional observations from a re-analysis of the deposited data

How the results depend on the processing

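TPM do not keep the reads behind each value, and 3 mice a group limit the precision of each value. Over 15 alternatives in YAP KO and 14 in YKTH livers, the number of the 10 genes past the threshold stayed between 8 and 10 and between 8 and 9. At an adjusted p of 0.01 it was 8 in each model, and with a block for near LM numbers (LM74 and LM75 against the others) it was 10 in YAP KO livers. The difference between the models and that between the WT groups had 0 of the 10 under every alternative run. Of 149 recomputed changes of these genes in YAP KO livers, 141 kept their direction and their side of the threshold and 8 lost the call. Of 139 in YKTH livers, 126 kept both, 11 lost the call and 2 gained it. None of these changed sign.

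Over all genes, a threshold of 0.01 left 1378 higher and 1115 lower in YAP KO and 1418 and 1224 in YKTH livers. Leaving out LM189 left 1434 and 1676 in YAP KO, and leaving out LM251 or LM250 left 1337 and 1496, or 1406 and 1597, in YKTH livers. For the difference between the models the total of 8 genes ranged from 2 with no filter to 20 without LM74, and for the WT groups the total of 24 ranged from 8 without LM227 to 28 without LM75.

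Changes that were past no threshold turned in sign, and the cause was not tested. *Socs2* in YAP KO livers was at 0.15 without scaling and at -0.59 to 0.21 with each mouse left out, and *Mt2* in YKTH livers at -0.14 to 0.71. With each mouse left out, the difference between the models ran from -0.60 to 0.37 for *Saa1*, from -0.283 to 0.0667 for *Hp* and from -0.172 to 0.0747 for *Crp*. That between the WT groups ran from -0.631 to 0.0483 for *Lcn2*, from -0.204 to 0.00499 for *Orm1*, from -0.66 to 0.21 for *Orm2* and from -0.394 to 0.0592 for *Socs3*. The labels give the groups no shared replicate numbers, so no mouse was paired with another, and the block for near LM numbers, with 2302 genes higher and 2325 lower, was the only one fitted.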

Other observations

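Markers of the remaining cell types of the liver moved unequally. Of all tested genes, 18.8% were called higher and 18% lower in YAP KO, and 19.2% and 19% in YKTH livers. Of 9 stellate cell and fibroblast markers 5 rose in each model and 1 fell in YAP KO livers (limma, adjusted p under 0.05), with sums of 122 to 164 TPM in WT and 329 to 509 in knockout livers. The fibrillar collagen genes led them, with *Col1a1* up by 4.02 and 3.11 and *Col1a2* by 3.03 and 2.36 on the log2 scale, while *Lrat*, which esterifies retinol for storage in stellate cells, fell by 0.85 in YAP KO livers. Of 10 biliary markers 6 were tested, and 3 of them rose in each model. *Spp1*, which encodes osteopontin and is also made by macrophages, rose by 3.03 and 1.33, and *Sox9*, a transcription factor of bile duct cells, by 2.10 and 1.69. *Epcam*, an adhesion molecule of bile duct cells, fell by 1.48 in YKTH livers (limma adjusted p = 0.00118), and it fell below the filter on low values, and so was not tested, without LM226, LM227 or LM230. The biliary sums, which include *Spp1*, were 38.8 to 71.9 TPM in WT, 358 to 779 in YAP KO and 132 to 241 in YKTH livers. The paper reports that CK19 staining showed no intrahepatic ducts in adults of either model. The part of bile duct cells in these sums was not tested.

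Of 8 endothelial markers, 2 fell and none rose in YAP KO, and 2 fell and 1 rose in YKTH livers. That is near the share of all tested genes called lower, 18% and 19%. Without scaling 1 rose and 1 fell in each model. *Kdr*, which encodes a receptor for VEGF, fell by 0.95 and 0.93 on the log2 scale. Of 10 lymphocyte markers, 3 were tested in YAP KO and 4 in YKTH livers, and 0 passed (limma, adjusted p under 0.05), with 1 called lower without LM189. Their summed TPM was 6.82 to 12.1 in WT and 7.71 to 16.4 in knockout livers.

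The genes whose levels varied most like *Saa1* and *Socs3* from mouse to mouse were found from the deviations of log2(scaled TPM + 1) from the group means, over 12 livers and 12158 genes. For *Saa1* these were *Klhl42* (Pearson's r 0.929, Spearman's rho 0.923), *Prdm15* (0.915 and 0.874) and *Saa2* (0.906 and 0.909). Without the mice whose *Saa1* lay farthest from the mean of their own group, LM225 and LM226, r was 0.881, 0.789 and 0.783. For *Socs3* they were *Hspa2* (0.958 and 0.916), *Gid8* (0.942 and 0.811) and a second row of the symbol *Ndor1* (0.937 and 0.888), and r was 0.931, 0.906 and 0.912 without LM225 and LM227. These are descriptions of the same 12 libraries, taken as the highest of many, and *Saa1* and *Saa2* are near-identical copies.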
